A study of Mus musculus with 10 samples.

Results

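The regions described here were accessible in both control ATAC-seq libraries and still held a called peak after deletion of Arid1a. Of the 16600 regions in the deposited table of merged peaks, 10259 overlapped by at least 1 bp a peak in both control (WT) libraries, and 1114 of these also overlapped a peak in at least 1 of the 2 Arid1a-deleted (cKO) libraries. These 1114 regions are called kept regions. They were chosen by the called peaks of all 4 ATAC-seq libraries, and they made up 10.9% of the regions with peaks in both WT libraries (Wilson 95% interval 10.3 to 11.5). The peak was kept in cKO replicate 1 alone at 527 regions, in cKO replicate 2 alone at 474 and in both cKO libraries at 113. In all, 76522 and 42265 peaks were called in WT replicates 1 and 2, and 55902 and 68317 in cKO replicates 1 and 2. Kept regions held 1.48% and 2.69% of these WT peaks and 1.16% and 0.872% of these cKO peaks, so most peaks of all 4 libraries lay elsewhere. The other 9145 regions with peaks in both WT libraries, in which no cKO peak was called, serve as the comparison and are called lost regions. All intervals on shares cover counting error only, since regions of 1 library are not replicates.

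The study asked how deletion of Arid1a changes chromatin and RNA in the injured retina. All mice were Arid1a fl/fl on a C57BL/6 background, 8 to 10 weeks old by the labels. WT eyes received an intravitreal AAV2 virus that expresses GFP and kept the fl/fl genotype. The cKO eyes received AAV2 that expresses Cre, giving Arid1a del/del. Optic nerve crush followed 2 weeks later in both groups, so the controls were injured as well, and retinas were taken 3 days after the crush. Live Thy1.2-positive cells were sorted from dissociated retinas. ATAC-seq was done on 2 libraries a group and RNA-seq on 3 libraries a group. Delivery was by virus into the vitreous, so Cre was not limited to ganglion cells by the mouse line. Per the study's description of the sort, each sample pools several retinas.

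ARID1A is the large DNA-binding subunit of the BAF (SWI/SNF) complex, which uses ATP to slide and evict nucleosomes. ATAC-seq reads accumulate where Tn5 transposase can insert into DNA that nucleosomes leave bare, typically as a broad opening at active promoters and as narrower openings at enhancers. Loss of a BAF subunit is known to close many enhancers, while promoters of housekeeping genes, with their CpG islands and constitutive factors, are generally less dependent on it.

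Of the promoters that meet the naming rule, 2 were kept in both cKO libraries and had a reference sequence, and these 2 are shown. The windows are 250 bases before to 50 bases after the gene start, from RefSeq on GRCm38.p6, printed 5′ to 3′ on the strand of the gene. Capitals mark matches to the searched motifs. Creb1 encodes the cAMP response element-binding protein, and its window lies at chr1:64532554-64532853 on the plus strand. Rps6 encodes a protein of the small ribosomal subunit, and its window lies at chr4:86857318-86857617 on the minus strand.
Creb1: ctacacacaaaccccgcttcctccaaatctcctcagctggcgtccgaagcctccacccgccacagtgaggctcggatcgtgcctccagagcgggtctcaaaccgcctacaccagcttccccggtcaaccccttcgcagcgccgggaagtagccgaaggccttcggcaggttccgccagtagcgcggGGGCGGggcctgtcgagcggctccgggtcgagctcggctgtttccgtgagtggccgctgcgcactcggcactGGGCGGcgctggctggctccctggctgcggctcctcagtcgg
Rps6: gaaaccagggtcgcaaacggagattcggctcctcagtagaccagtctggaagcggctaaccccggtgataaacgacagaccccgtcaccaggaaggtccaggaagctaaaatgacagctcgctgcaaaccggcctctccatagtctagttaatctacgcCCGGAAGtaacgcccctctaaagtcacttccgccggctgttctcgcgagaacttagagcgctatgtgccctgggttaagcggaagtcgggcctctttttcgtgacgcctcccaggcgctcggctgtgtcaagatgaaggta
The Creb1 window had a GC content of 69% and held the GC box GGGCGG, a motif of SP and KLF factors, starting 64 bases before and 8 bases after the gene start. The Rps6 window had a GC content of 56.3% and held the ETS motif CCGGAAG starting 91 bases before the gene start.

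At Creb1 the WT peaks ran across the gene start and the cKO peaks lay before it. Relative to the start, with negative positions upstream, the Creb1 peak spanned -809 to 383 bp in WT replicate 1 and -771 to 424 bp in WT replicate 2. It spanned -748 to -343 bp in cKO replicate 1 and -586 to -75 bp in cKO replicate 2. Both GC boxes were therefore inside both WT peaks and outside both cKO peaks. At Rps6 the peak spanned -426 to 285 bp and -412 to 443 bp in the WT libraries, against -816 to -272 bp in cKO replicate 1 and -475 to -101 bp in cKO replicate 2. The ETS match at Rps6 was likewise inside both WT peaks and outside both cKO peaks.

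Over the kept regions that hold a gene start, cKO peaks likewise covered the start less often than WT peaks did, but they lay on both sides of it. There were 555 kept regions at a gene end with an annotated start inside and a known strand. In the WT libraries the called peak covered the start for 91.9% of 565 peaks (89.3 to 93.8) in replicate 1 and 90.4% of 565 peaks (87.7 to 92.6) in replicate 2. In the cKO libraries it did so for 28.1% of 299 peaks (23.3 to 33.4) and 25.1% of 283 peaks (20.4 to 30.4). The median midpoint of the cKO peaks was 63.5 bp into the gene in replicate 1 and 128 bp in replicate 2, unlike at Creb1 and Rps6. The midpoint lay within 250 bp of the start for 80.4% and 76.3% of WT peaks and for 40.1% and 41.3% of cKO peaks. Both WT libraries were thus above both cKO libraries. The same peaks chose the regions, and the rule accepted a cKO peak anywhere in the merged region. These shares are therefore a description with no test. With 2 against 2 libraries an exact two-sided permutation test could in any case not give a p below 0.333. Positions of peaks inside the regions were examined after the peaks of Creb1 and Rps6 had been seen.

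**Figure D1:**
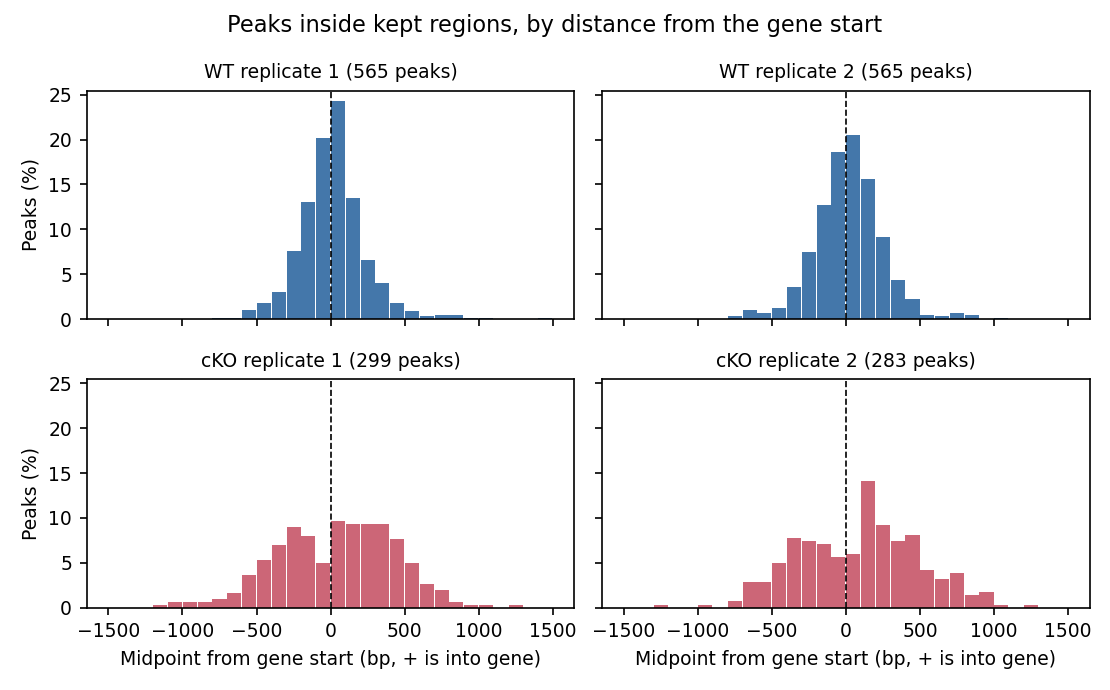
Share of peaks (%) in 100 bp bins of the distance from peak midpoint to gene start (bp, positive into the gene), for kept regions with a gene start inside, 1 panel a library. WT midpoints pile up on the start, where 80.4% and 76.3% lay within 250 bp, while cKO midpoints lay on both sides of it, with 40.1% and 41.3% within 250 bp.

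The kept cKO peaks were also narrower. The positions were recounted among peaks at most 400 bp wide, a width chosen after seeing the data. Of these narrow peaks, 61.3% of 62 and 75.9% of 83 covered the start in the WT libraries. In the cKO libraries 22.7% of 229 and 22.9% of 223 did. The recount left few of the WT peaks and most of the cKO peaks. It did not match the regions for width, so whether width accounts for the positions was not tested. Over the kept regions a WT peak had a median width of 639 bp in replicate 1 and 654 bp in replicate 2, and a cKO peak 311 bp and 316 bp. The WT peaks covered a median of 73.6% and 73.5% of the region, and the cKO peaks 35.8% and 37.1%. Over all deposited peaks the medians were 328 and 348 bp in WT and 276 and 292 bp in cKO. In 838 of the 1114 kept regions (75.2%, 72.6 to 77.7) the cKO peak overlapped the stretch shared by both WT peaks. In 258 regions (23.2%) it met only a stretch called in 1 WT library, and in 18 the WT peaks had no stretch in common. An overlap of 1 bp counted here, and peaks that run beyond the WT peak are included.

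Accessibility was read from the authors' group values, the log2 of the mean normalized reads in a region, which pool the libraries of a group and carry no error. Peaks chose the kept regions in the same contrast, so these levels are a description with no test. The median level of the kept regions was 5.04 in WT and 3.31 in cKO, or 32.8 and 9.92 reads. The median of the differences within a region, cKO minus WT, was -1.67, with quartiles of -2.39 and -1.01. A difference of -1.67 is a cKO level of 31.4% of WT. Chosen without WT replicate 1 the regions had a median difference of -0.45, and without WT replicate 2 of -0.35. At lost regions the median levels were 4.79 in WT and 2.42 in cKO, and the median difference was -2.50, or 17.7% of WT. A kept peak was thus not an unaltered level. The difference was at or under -1 at 840 kept regions (75.4%), where 59.8% of all 16600 regions were, and at or under -2 at 415 (37.3%), where 40.8% of all regions were. It was above 0 at 57 kept regions (5.12%), where 22.5% of all regions were. The peaks that define the regions come from the same reads, so nothing is read from these shares.

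The kept regions were also split by the number of cKO libraries with a peak. The peaks come from the same reads as the levels, so the split itself favours a higher cKO level where both had one. The levels of the 2 parts are a description with no test. In the 113 regions with peaks in all 4 libraries the median levels were 5.25 in WT and 3.94 in cKO, or 38.1 and 15.3 reads. The median of the differences within a region was -0.44, which corresponds to 73.7% of WT. It is not the difference of the 2 median levels, and at gene ends it was -1.94. In the 1001 regions with a cKO peak in 1 library the median difference was -1.73, which corresponds to 30.1% of WT. The difference lay within 0.5 of 0 at 48 of the 113 (42.5%), where 18.6% of all regions did, and was above 0 at 39 (34.5%). At the 1001 it was above 0 at 18 (1.8%). The cKO libraries shared few kept peaks. Of the 640 kept regions with a peak in cKO replicate 1, 113 (17.7%, 14.9 to 20.8) also had it in replicate 2. Among the 9619 regions with WT peaks and none in cKO replicate 1, the peak was in replicate 2 at 4.93%.

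**Figure D2:**
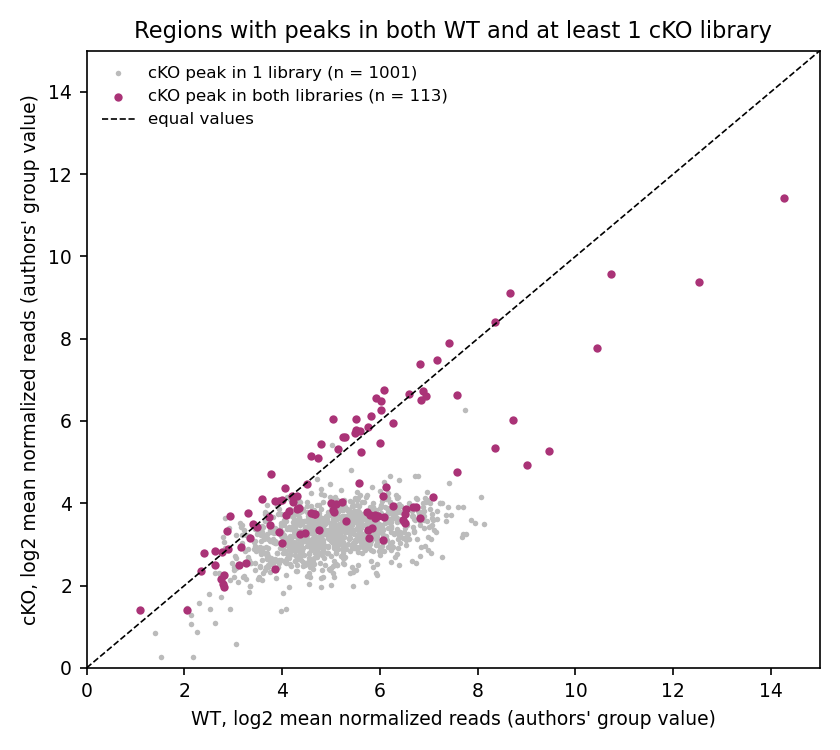
Authors' group values (log2 mean normalized reads) in WT (x) and cKO (y) for the 1114 kept regions, 1 point a region, with a dashed line of equal values. Regions kept in 1 cKO library (grey, n = 1001) lie under the line around a cKO level near 3.26, and many of the 113 regions kept in both (purple) lie along it.

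The levels of the kept regions are given here as multiples of the lowest level of each group. The threshold of peak calling was not known, so the distance of the regions from it was not measured. The lowest cKO level in the table, 0.595 normalized reads, was shared by 117 regions, and the next levels rose from it by 0.288 or 0.307 reads, which sum to it. The lowest level is thus what 1 read in each cKO library would give. In WT the lowest level was 0.877 and the steps from it were 0.38 and 0.499. By these steps 1 read counted for more in the WT levels than in the cKO levels. The kept regions' median in cKO was 16.7 times that level, against 37.4 times the corresponding level in WT. At lost regions the medians were 9 times in cKO and 31.6 times in WT. The rule's edge was not sharp in these levels. The lowest cKO level of a kept region was 0.27, while 823 lost regions (9%) lay above the kept regions' median of 3.31, and the highest lost region reached 5.27. A cKO peak lay outside but within 100 bp of 117 lost regions. All 1114 kept regions held their peaks whole, which follows from merging peaks into regions. The narrowest cKO peak in them was 205 bp wide.

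Most kept regions were at gene ends, a share that rests on the use of both WT libraries. Within 1000 bp of either end of a gene lay 751 kept regions (67.4%, 64.6 to 70.1), elsewhere inside a gene 223 (20%, 17.8 to 22.5), between genes 130 (11.7%, 9.91 to 13.7), and 10 on an unplaced scaffold for which no genes are listed. With peaks asked of 1 WT library, the share at gene ends was 33.9% without WT replicate 1 and 27.1% without WT replicate 2. Of the 751, the nearest end was the gene start at 578 (77%), the far end at 22 and an end of unknown direction at 151. Lost regions were at gene ends in 71.4% (70.4 to 72.3), in gene bodies in 19.4% and between genes in 9.19%. The 1001 regions kept in 1 cKO library had almost the same make-up as lost regions, with 71.1% (68.2 to 73.9) at gene ends. The 113 kept in both cKO libraries did not. Only 39 of them were at gene ends (34.5%, 26.4 to 43.7), 32 in gene bodies (28.3%, 20.8 to 37.2) and 33 between genes (29.2%, 21.6 to 38.2). For reference, the 1624 regions that both cKO libraries called and the WT libraries did not were at gene ends in 9.3% and between genes in 41.4%.

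**Figure D3:**
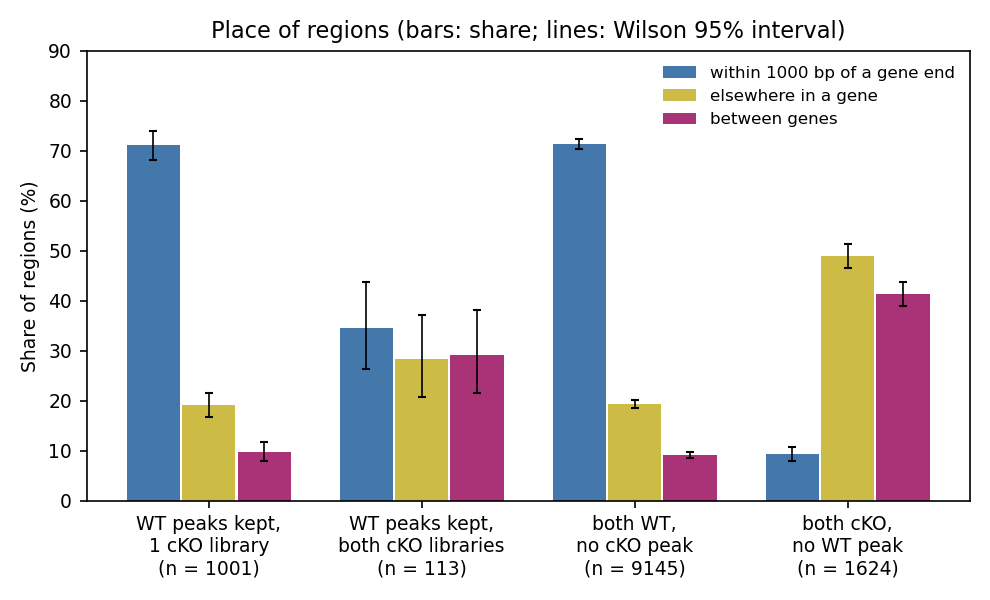
Share of regions (%) at gene ends, elsewhere in genes and between genes in 4 sets of regions, with Wilson 95% intervals as lines. Regions kept in 1 cKO library resemble lost regions (71.1% and 71.4% at gene ends), and those kept in both cKO libraries have 34.5% at gene ends.

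Kept regions at gene ends differed most between the groups and those between genes least. The median difference was -1.95 at gene ends, -1.20 in gene bodies and -0.80 between genes. In the regions with peaks in all 4 libraries it was -1.94 at gene ends, -0.17 in gene bodies and -0.13 between genes. The gene ends started from more reads, with a WT median of 38.3 against 22 in gene bodies and 14.4 between genes, and their cKO medians of 10.1, 9.85 and 8.28 were close to each other. At lost regions the median was -2.68 at gene ends and -1.94 between genes.

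Kept regions were wide. Their median width was 953.5 bp, with quartiles of 727.2 and 1211 bp, and it was 1131 bp where all 4 libraries had a peak and 757 bp at lost regions. Chosen without WT replicate 2 the kept regions had a median width of 582 bp. A merged region grows with the peaks merged into it, so width is tied to the rule. Among regions with peaks in both WT libraries the kept share was 4.7% in the narrowest quartile of width (242 to 589 bp), 8.47% in the next, 11% in the third and 19.3% (17.8 to 20.8) in the widest (1008 to 4390 bp). In the widest quartile it was 17% (15.4 to 18.7) at gene ends, 24.1% (19.9 to 28.9) in gene bodies and 41% (33.1 to 49.5) between genes, where 55 of 134 regions were kept. By the WT level the kept share was 8.77% in the lowest quartile and 13.6% in the highest.

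**Figure D4:**
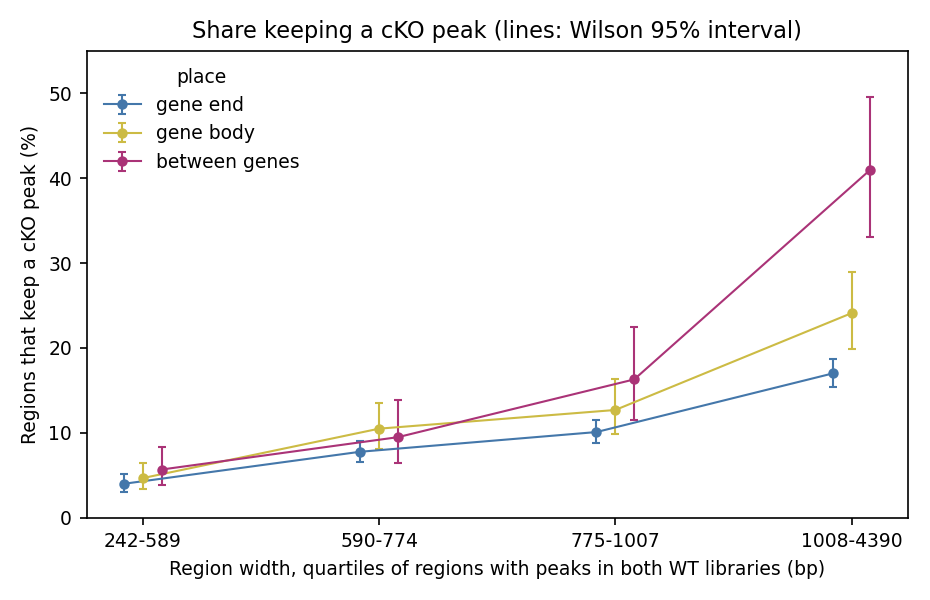
Share (%) of regions with peaks in both WT libraries that kept a cKO peak, by quartile of region width (bp) and by place, with Wilson 95% intervals. The share is higher in wider regions at all 3 places and reaches 41% between genes against 17% at gene ends in the widest quartile.

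Kept and lost promoters had similar base composition and RNA levels. A reference window was found for 438 kept and 3512 lost promoters. Their median GC content was 65.3% and 64%, and their median CpG observed-to-expected ratio 0.84 and 0.839, against 52.7% and 0.384 for all 32851 promoters in the table. On either strand, GGGCGG occurred in 74.7% of kept, 77.2% of lost and 35.7% of all windows. The ETS motif CCGGAAG occurred in 22.8%, 20.4% and 8.86%, and the NFY motif CCAAT in 45.9%, 44.2% and 37.4%. The palindromic motif of NRF1 was in 4.34%, 2.65% and 0.971%, and the YY1 motif in 0.913%, 2.79% and 0.852%. The CREB/ATF motif TGACGTCA was in 2.97%, 4.5% and 1.79%, the AP-1 motif TGANTCA in 4.34%, 3.19% and 7.81%, and the E-box CACGTG in 11.4%, 10.6% and 7.15%. These matches are descriptions of letters in the window, with no test. The kept share by quartile of promoter GC content ran from 9.72% to 13.5%, the latter in the third. By quartile of WT TPM of the gene, with medians of 2.56, 13.7, 34.4 and 105 TPM, it was 10%, 11.7%, 9.59% and 9.83%.

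By chromosome the kept share was lowest on X, at 7 of 250 regions (2.8%, 1.36 to 5.67), and highest among the placed chromosomes on 4, at 96 of 696 (13.8%, 11.4 to 16.6). Chromosome 4 also held 21 of the 113 regions with peaks in all 4 libraries. On the unplaced scaffold JH584304.1, 10 of 11 regions were kept, 9 of them in both cKO libraries.

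Some of the regions kept in both cKO libraries came in runs. Counting 3 or more such regions with gaps of at most 1000000 bp, a rule chosen after seeing the data, 26 of the 113 fell into 4 runs. The run on the scaffold held 9, with differences from 0.18 to 1.02, so that all 9 were higher in cKO. Inside Sfi1, a gene for a centrin-binding centrosome protein, 4 regions between chr11:3184308 and 3199940 had differences from 0.04 to 0.56. On chromosome 4, 10 regions between 145428373 and 147528851 near the zinc finger genes Zfp981, Zfp992 and Zfp993 and the predicted genes Gm13141 and Gm42346 had differences from -0.53 to 0.55. In this stretch 12 of the 13 regions with peaks in both WT libraries were kept. On chromosome 9, 3 regions from 123461796 to 123937043, at Lars2 and Gm51701, had differences from -3.02 to -0.34. The median difference was 0.26 inside the runs and -0.85 at the 87 regions outside them. Zinc finger clusters, Sfi1, Lars2 and unplaced scaffolds have near-identical copies elsewhere in the genome, so reads there may be split between copies and these values are uncertain.

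The highest levels of all were at ribosomal DNA. The region at chr17:39843323-39846746, over Rn18s-rs5, an 18S ribosomal RNA-related sequence, stood at 14.26 in WT and 11.41 in cKO, or 19620 and 2721 reads. The peak there was 3423 bp wide in each WT library, 3354 bp in cKO replicate 1 and 3313 bp in cKO replicate 2, so the extent was close in all libraries while the level was 13.9% of WT. The neighbouring region at chr17:39847531-39848824 stood at 12.53 and 9.38, with peaks of 1255 and 1294 bp in WT against 668 and 655 bp in cKO. Ribosomal DNA is repeated, and these values are uncertain for the same reason as above. Next came regions inside Sirt3, a mitochondrial deacetylase, at 10.73 and 9.57, and inside the predicted gene Gm36876, at 10.45 and 7.77. A region inside Zc3h7a, a zinc finger gene, stood at 8.73 and 6.03. At the far end of Lars2, the mitochondrial leucyl-tRNA synthetase, the same 387 bp were called in all 4 libraries, with levels of 8.36 and 5.34. These are peaks of high signal that stayed called although the cKO level was below the WT level. Whether the regions in Sirt3, Gm36876 and Zc3h7a have copies elsewhere in the genome was not checked.

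Among the 10 kept regions of highest WT level, those in Sfi1 were not below WT. The widest Sfi1 region, chr11:3184308-3186299, stood at 8.67 in WT and 9.10 in cKO, and the region at chr11:3193050-3194062 at 8.36 and 8.40. The 5 largest positive differences were 1.02 and 0.67 on the scaffold, 0.94 between genes at chr17:23518775-23519668, 0.79 inside Fermt3 and 0.74 between genes at chr15:3943575-3946077. Fermt3 encodes kindlin-3, an integrin activator of blood cells, and its levels were 2.84 in WT and 3.63 in cKO, or 7.16 and 12.38 reads. The widest kept region, 4390 bp between genes at chr10:52493739-52498128, had 4.30 in WT and 4.17 in cKO, with peaks of 2857 and 3956 bp in WT and 3558 and 4005 bp in cKO. A region of 3768 bp at chr6:65301312-65305079 had 2.89 and 2.90. These wide, low regions between genes had nearly equal levels in both groups.

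The largest negative differences were at kept regions with strong WT peaks, in which 1 cKO library still had a short peak. They were -4.65 inside Myo3a, a class III myosin, -4.59 at the start of Rmnd5a, a ubiquitin ligase subunit, -4.51 at an end of Cdca2, which encodes a cell division cycle protein, -4.51 at the start of Camta1, a calmodulin-binding transcription activator, and -4.45 at the start of Mon1b, a vesicle trafficking factor. Their cKO peaks were 220, 252, 212, 244 and 254 bp wide, and the cKO level was 3.98% to 4.58% of WT. At Camta1 the WT peaks ended at 151862690, while the cKO peak ran from 151862678 to 151862921, so most of it lay beyond them. Whether the Myo3a region has copies elsewhere in the genome was not checked.

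The targeted gene had a kept region of its own, away from its promoter. At chr4:133751693-133752293, inside Arid1a and 4776 bp from its start, the level was 3.18 in WT and 3.47 in cKO. The peaks there were 231 and 331 bp in WT and 537 bp in cKO replicate 1, and none was called in cKO replicate 2. The region over the Arid1a start, chr4:133756722-133757681, had 5.12 in WT and 2.44 in cKO and no cKO peak. Arid1a RNA was 18.8, 11.7 and 14.1 TPM in WT and 18.8, 27.9 and 25 TPM in cKO (log2 difference 0.66, SE 0.28, limma adjusted p = 0.274). The transcript was thus not lower in cKO. A total over the gene need not show a deleted exon, and the cKO label was not checked by this value.

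Of the 39 gene ends kept in both cKO libraries, 25 had the gene start as the nearer end, and the 12 of these with the highest cKO level are described here, a choice made after their values were seen. Most were lower in cKO. Atp6v1a, a subunit of the vacuolar proton pump, stood at 7.09 in WT and 4.15 in cKO. Creb1 stood at 6.73 and 3.92, Maco1, a neuronal membrane protein, at 6.68 and 3.92, and Ntan1, an amidase of the N-degron pathway, at 6.53 and 3.85. Rps6 stood at 5.74 and 3.80. Smaller differences were found at Nrcam, a neuronal adhesion molecule (cKO minus WT, -0.99), Diras2, a small GTPase (-1.11), Epn1, an endocytic adaptor (-1.21), the predicted gene Gm40564 (-1.19) and Klhl36 (-0.32). Gm52862 had 6.85 and 6.50. Of the 12, only 4931408C20Rik was higher in cKO, with 6.02 and 6.49, and it was listed at 0 TPM in all 6 RNA libraries.

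The RNA libraries are separate from those that chose the regions, so RNA of the genes at kept regions can be tested. They also set limits. The cells were labelled retinal ganglion cells, yet the summed RNA of 13 ganglion cell markers was 88.4 to 126 TPM in WT and 143 to 179 TPM in cKO, with Pou4f2 and Pou4f3 listed at 0 in a library. A set of 9 rod markers summed to 12400 to 17300 TPM in WT and 25500 to 48200 TPM in cKO, with all 9 higher in each cKO library than in each WT library. A set of 9 T cell markers summed to 514 to 1630 TPM in WT and 144 to 349 TPM in cKO, with 6 of 9 lower in each cKO library. For 7 amacrine cell markers the sums were 222 to 429 TPM in WT and 569 to 1220 TPM in cKO. Of these 7, only 2 were higher in each cKO library than in each WT library. The 9 myeloid cell markers summed to 1220 to 2190 TPM in WT and 668 to 869 TPM in cKO, with 3 of 9 lower in each cKO library. Fewer cells of a type and less RNA per cell cannot be told apart in such libraries.

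No gene at a kept region passed the test on RNA. Of 956 genes at kept regions, 892 had TPM values and 818 passed the filter on low values. At an adjusted p under 0.05 from limma, 0 of 818 were higher and 0 lower in cKO, against 1 gene higher (0.00570%) and 0 lower (0%) of all 17555 tested. The lowest adjusted p was 0.0856. At an unadjusted p under 0.05, 101 (12.3%) were higher and 31 (3.79%) lower, beside 11.9% and 6.45% of all genes. Without cKO replicate 2 these counts were 45 and 15, and without cKO replicate 1 they were 57 and 22. All 3 cKO libraries were above all 3 WT libraries for 159 (19.4%, all genes 18.7%) and below them for 44 (5.38%, all genes 7.18%). The median log2 difference was 0.13 at kept regions, 0.16 at lost regions and 0.16 over all genes. Scaled by the median of ratios, which moved the median of all genes from 0.16 to 0.01, 67 were higher and 54 lower, so the share of higher calls was 55.4% in place of 76.5%. Over all genes that scaling gave 7.57% higher and 9.54% lower. The share of higher calls over all genes was thus 44.2% in place of 64.9%, and the prevailing direction depended on the scaling. All other shares of all genes given here are without that scaling. Also without it, genes at lost regions gave 733 (11.2%) higher and 259 (3.95%) lower of 6553. The shares at kept regions were near those of all genes and of lost regions, and no more is read from them.

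By place, 67 of 646 genes (10.4%) at kept gene ends were higher and 20 (3.1%) lower at an unadjusted p under 0.05. Of 178 genes with a kept region in the body, 35 (19.7%) were higher and 11 (6.18%) lower, and at lost regions in gene bodies the shares were 17.2% and 4.23%. Of 49 genes at regions with peaks in all 4 libraries, 9 (18.4%) were higher and 3 (6.12%) lower. Over all genes the shares were 11.9% and 6.45%. In RNA level the genes at kept regions resembled those at lost regions. Their median was 18.6, 25.3 and 20.1 TPM in the WT libraries and 23.8, 25.1 and 22.6 TPM in the cKO libraries, against 20.7, 27 and 22.8 and 25.7, 26.7 and 24.1 TPM. For the 27 tested genes at gene ends with peaks in all 4 libraries the medians were 38.2, 55.9 and 50.8 TPM in WT and 39.4, 40.4 and 41.8 TPM in cKO.

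Among the 5 largest negative RNA differences at kept regions were those of Ets1, Cd2 and Cd3d. Ets1, an ETS transcription factor abundant in lymphocytes, had 61.9, 61.2 and 45.5 TPM in WT and 11.6, 7.21 and 8.43 TPM in cKO. The groups did not overlap, and the log2 difference of TPM + 1 was -2.52 (SE 0.27, limma adjusted p = 0.0856). Its kept region lies in the gene body, where accessibility was 4.65 in WT and 2.67 in cKO. Cd2, an adhesion molecule of T and NK cells, had 217, 89.7 and 159 TPM in WT and 42.3, 16 and 43.3 TPM in cKO (-2.20, SE 0.48, limma adjusted p = 0.124). Its region at chr3:101287709-101288320 had 3.62 and 3.12. Cd3d, a chain of the T cell receptor complex, had 55.7, 13.4 and 35.7 TPM in WT and 11.5, 3.29 and 6.39 TPM in cKO (-2.08, SE 0.59, limma adjusted p = 0.155), with 4.28 and 2.36 at its far end. Fermt3 had 35, 24 and 40.3 TPM in WT and 14.3, 8.07 and 12.5 TPM in cKO, while accessibility of its kept region was higher in cKO as given above. T cell markers were lower in cKO in the same libraries, as were myeloid cell markers, and their part in these differences was not tested.

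The other 2 of the 5 largest negative differences were more variable. Arf6, a small GTPase of endosome recycling, had 16.4, 175 and 11.2 TPM in WT and 6.74, 5.28 and 4.24 TPM in cKO (-2.40, SE 0.94, limma adjusted p = 0.244). WT replicate 2 was 10 or more times the other WT libraries, and across the alternatives tried the difference ranged from -3.12 to -1.20. Mcoln2, a lysosomal cation channel, had 7.05, 1.89 and 11 TPM in WT and 0.725, 1.22 and 0.513 TPM in cKO (-1.87, SE 0.54, limma adjusted p = 0.157). At an end of Arf6, whose strand was not given, accessibility was 6.13 in WT and 3.14 in cKO.

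The 5 largest positive RNA differences were those of Mir670hg, Lhfpl3, Pbx3, Galntl6 and Kcnj6. At each of them the kept region was less accessible in cKO. Of all 1114 kept regions only 57 (5.12%) had an accessibility difference above 0, so nothing is read from this. At Lhfpl3 and Kcnj6 the cKO peak met only a stretch called in 1 WT library. Mir670hg, a long noncoding RNA, had 52.4, 48.6 and 24.5 TPM in WT and 121, 149 and 90.3 TPM in cKO (1.54, SE 0.35, limma adjusted p = 0.124), with accessibility of 5.40 and 3.66. Lhfpl3, a tetraspan membrane protein, had 9.13, 4.28 and 3.61 TPM in WT and 16.1, 23.4 and 11.6 TPM in cKO (1.47, SE 0.41, limma adjusted p = 0.151), with 4.75 and 3.69. For both genes the libraries of the groups did not overlap. Pbx3, a homeodomain transcription factor, had 3.13, 3.2 and 4.91 TPM in WT and 8.33, 11.4 and 13.9 TPM in cKO (1.36, SE 0.31, limma adjusted p = 0.125), with 5.14 and 3.47. Galntl6, of the GalNAc-transferase family, had 2.44, 1.65 and 2.92 TPM in WT and 8.48, 8.59 and 5.59 TPM in cKO (1.35, SE 0.31, limma adjusted p = 0.124), with 3.45 and 2.38. Kcnj6, the potassium channel GIRK2, had 1.04, 0.293 and 0.972 TPM in WT and 4, 4.81 and 1.69 TPM in cKO (1.30, SE 0.39, limma adjusted p = 0.167), with 4.17 and 2.88. The groups did not overlap for these 3 genes either. Rod markers and the sum of amacrine cell markers were higher in cKO in the same libraries, and their part was not tested.

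**Figure D5:**
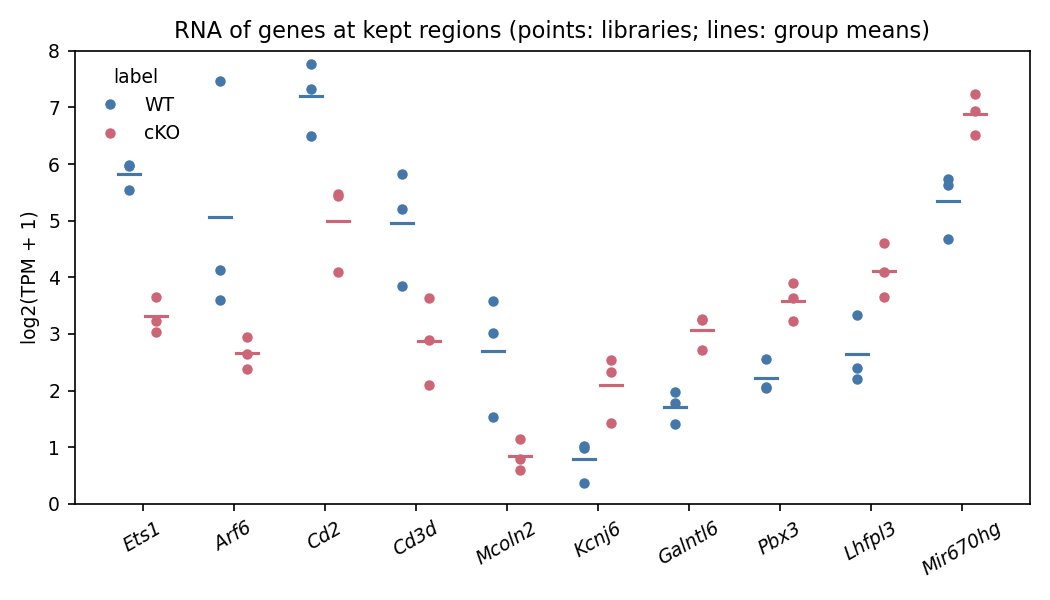
RNA level (log2 of TPM + 1) of the 5 genes with the largest negative and the 5 with the largest positive difference among genes at kept regions, 1 point a library (3 WT, 3 cKO) and lines at group means. The libraries of the groups do not overlap for any of the 10, and WT replicate 2 of Arf6 (175 TPM) lies far above the other WT libraries.

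In the gene lists drawn up for this tissue the kept gene ends were few, and they are read against the 10.3% (9.64 to 11) of all 7278 gene ends with peaks in both WT libraries that were kept. In JAK-STAT signalling, which relays cytokine signals, 1 of 18 gene ends with peaks in both WT libraries was kept, at the promoter shared by Socs4 and Wdhd1 (5.07 in WT and 2.92 in cKO). Of 31 list genes tested for RNA, 1 was higher and 7 lower at an unadjusted p under 0.05, where 11.9% and 6.45% of all genes were, and 0 passed the adjusted one. In apoptosis 3 of 30 were kept. They were Casp2, an initiator-type caspase (6.53 and 2.98), Gadd45a, a stress-inducible regulator (6.76 and 4.10), and the promoter shared by Cycs, the cytochrome c gene, and 5430402O13Rik (6.09 and 3.70). Of 43 apoptosis genes tested, 1 was higher and 12 lower at an unadjusted p under 0.05, with a median log2 difference of -0.38 against 0.16 over all genes. T cell and myeloid cell markers were lower in cKO in the same libraries, and their part in the counts of both lists was not tested. Casp2 RNA was 18.2, 19.5 and 20 TPM in WT and 17.8, 16 and 20.6 TPM in cKO, and the groups overlapped. Gadd45a RNA was 39.5, 80.9 and 6.38 TPM in WT and 33, 41 and 6.88 TPM in cKO, with overlap as well.

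Of the BAF complex itself 1 of 19 gene ends was kept. It was that of Brd9, a bromodomain subunit of the non-canonical BAF complex, with 5.56 in WT and 3.55 in cKO. Of factors that bind promoters 3 of 22 were kept, Creb1, Klf9 (6.22 and 3.42) and Nfya (7.95 and 3.52), the last a subunit of the CCAAT-binding factor. Of AP-1 and early response genes 1 of 14 was kept, Fosl2, a FOS-family member, with 6.07 and 3.24. For BAF genes 2 of 28 tested were higher and 0 lower in RNA at an unadjusted p under 0.05, for promoter-binding factors 1 and 4 of 28, and for AP-1 and early response genes 1 and 5 of 20. Of all genes 11.9% were higher and 6.45% lower. None of these list genes passed the adjusted test. Creb1 RNA was 18.4, 13.4 and 22.4 TPM in WT and 25.8, 30.8 and 24.6 TPM in cKO (0.58, SE 0.27, limma adjusted p = 0.297). Fosl2 RNA was 4.14, 2.7 and 2.96 TPM in WT and 2.65, 2.23 and 1.61 TPM in cKO (-0.43, SE 0.29, limma adjusted p = 0.471).

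Cytosolic ribosomal protein genes had 5 kept gene ends of 57, namely Rps6, Rps14 (6.14 in WT and 3.88 in cKO), Rps3a1 (5.55 and 3.47), Rpl39 (4.96 and 2.40) and Rpl5 (4.83 and 2.91). Of 80 such genes tested for RNA 1 was higher and 3 lower at an unadjusted p under 0.05, where 11.9% and 6.45% of all genes were. Rps3a1 was the gene with a kept region among these 3, with 367, 179 and 288 TPM in WT and 182, 142 and 106 TPM in cKO (-0.92, SE 0.33, limma adjusted p = 0.215), and its groups overlapped. Rps6 RNA was 889, 197 and 481 TPM in WT and 498, 519 and 289 TPM in cKO. Of 45 replication histone gene ends 3 were kept, all by 1 region in the Hist2 cluster at chr3:96220858-96221567 (4.87 and 2.50). Ribosomal protein and histone genes have close copies and pseudogenes, so their TPM is uncertain.

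Among marker genes, 0 of 2 ganglion cell gene ends, 1 of 2 T cell gene ends (Cd3d) and 1 of 2 amacrine cell gene ends (Gad2) were kept, and 0 of 1 each for cones, bipolar cells and Mueller glia. Over all gene ends 10.3% were kept, and nothing is read from counts this small. Gad2, an enzyme of GABA synthesis, stood at 4.51 in WT and 3.93 in cKO, with a peak in cKO replicate 2 alone. Its RNA was 13.7, 11 and 9.71 TPM in WT and 61.1, 28 and 14.3 TPM in cKO (1.29, SE 0.50, limma adjusted p = 0.235). The highest cKO library was over 4 times the lowest. Summed amacrine cell markers were higher in cKO in the same libraries, though only 2 of 7 were so singly in each cKO library, and their part was not tested.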

How the data were processed

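ATAC-seq was analysed from 4 libraries and RNA-seq from 6, grouped by the labels. Per the submitters' notes, reads were processed with Bowtie2 2.3.5.1, MACS2 2.2.5, Salmon 1.0.0 and DESeq2 1.26.0 on GRCm38. The authors called peaks per library (positions only were deposited) and merged them with DiffBind into regions, with a log2 mean of normalized reads for each group. The authors deposited RNA as TPM of 53974 genes, which keeps no read depth. The ATAC-seq levels are normalized group means, so the number of reads in a library is unknown here for both assays. Authors' columns and tables of fold changes, p-values and FDR were not used. Width was end minus start of the region, and starts were converted to count from 1.

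Regions were joined to peaks by an overlap of at least 1 bp and to RefSeq genes of GRCm38.p6 by symbol, and a gene end is within 1000 bp of either end. Strand was taken from the reference promoter table, which misses some genes. TPM was tested with limma 3.58.1 in R 4.3.3 on log2(TPM + 1) with a trend, over 17555 genes with at least 1 TPM in at least 3 of 6 libraries, with Benjamini-Hochberg adjustment. Fold changes on this scale understate those of low genes. The p-values measure the spread between libraries, which may be technical. Wilson intervals have a level of 95%. Python 3.11.15 was used, and the limma code was tested on simulated data.

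Same-numbered RNA libraries deviated together from their group means (correlations 0.334, 0.101 and 0.425 for replicates 1, 2 and 3), so the replicate number was used as a block in an alternative fit. Members, gene lists and tests were chosen with earlier results of these data known. Regions were named when among the 10 highest in WT or cKO, the 5 largest differences either way, the 3 widest, the 10 highest in cKO with peaks in all 4 libraries, list members at gene ends, or Arid1a. Genes were named as the 5 largest RNA differences either way at an unadjusted p under 0.05 without overlap. Other named regions were chosen after their values were seen.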

Additional observations from a re-analysis of the deposited data

How the results depend on the processing

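With a cKO peak required in both libraries, there were 113 regions, 34.5% at gene ends, a median width of 1131 bp and a median difference of -0.44. Leaving out each ATAC-seq library in turn gave 587 to 4108 regions, 27.1% to 64.4% at gene ends, median widths of 582 to 975 bp and median differences of -1.62 to -0.35. The extremes came from the WT libraries: without WT replicate 1 there were 2837 regions, 33.9% at gene ends, 648 bp and -0.45, and without WT replicate 2 there were 4108, 27.1%, 582 bp and -0.35. With 1 WT library the rule asks for fewer peaks, and so it admits regions that the other library did not call. Without cKO replicate 1 there were 587 regions and without cKO replicate 2 there were 640. A gene end of 3000 bp raised the share to 73.6%, and protein-coding genes alone lowered it to 62.4%. RNA counts at an unadjusted p under 0.05 were 67 higher and 54 lower with the median of ratios, and 45 to 108 higher and 15 to 37 lower when a library was left out. The count of higher genes was 57 without cKO replicate 1, and both counts were lowest, 45 and 15, without cKO replicate 2 (the cause was not tested). With the replicate block 110 were higher, 40 lower and 0 passed the adjusted test, and over all genes 1 was higher and 1 lower at the adjusted test in place of 1 and 0. The ATAC-seq levels are group means, and so no pairing could be used for them. All 10 named RNA differences and that of Arid1a kept their sign under every alternative fitted, and none was adjusted below 0.05. The remaining 51 values that answer a comparison moved by less than their error or less than 1.5 times. Among them are those for an overlap of at least 50% of the region or peak. That setting could not change them, because merged regions hold their peaks whole.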

Other observations

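Only 16 genes held more than 1 kept region. Sfi1 held 4, all with peaks in all 4 libraries. Elmo1, which encodes a Rac activator, held 2, with accessibility differences of -2.11 and -1.02, and Ntrk2, the BDNF receptor TrkB, held 2, with -1.96 and -1.34. Rims1, an active zone scaffold, held 2, with -1.21 and -0.93, and Dab1, the reelin adaptor, 2, with -1.03 and -0.82. Zfp536, a neuronal zinc finger repressor, held 2, with -1.14 and -0.70. Rps6ka2 and Nln, a kinase and a peptidase gene, held a region above 0 (0.27 in each) beside one below it (-3.02 and -1.70).

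Among other gene ends with peaks in all 4 libraries the difference varied. Cap1, an actin regulator, stood at 6.82 in WT and 3.64 in cKO, Srd5a3, a polyprenol reductase, at 6.07 and 3.11, and Hsdl2 at 6.47 and 3.59. Calr, the endoplasmic reticulum chaperone calreticulin, stood at 5.89 and 3.71, and Hmgn2, a nucleosome-binding protein, at 5.76 and 3.34. Zfyve9 had 4.37 and 3.25 and Ehhadh 4.59 and 3.77. These genes were picked after their values were seen.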
